A study of Arabidopsis thaliana with 4 samples.

Results

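The genes described here encode the nuclear subunits of the plant photosystems and of the light-harvesting antenna attached to them. They were taken from a list of 43 Arabidopsis thaliana loci, and a gene counted as measured where a non-control probe carried its locus identifier. All 43 loci were found, among 25665 loci on the array and 19246 genes tested. They fell into 4 classes by protein family: 6 LHCA genes, 14 LHCB genes, 12 PSA genes and 11 PSB genes. RNA came from shoot apices of plants grown in vitro to growth stage 1.02 in conditions labelled LD. The mutant ron3 was compared with its control, the accession Ler, and the labels name no treatment, allele or further genotype. Both genotypes were hybridised together on each of 4 two-colour arrays (a to d), with the mutant in Cy5 on arrays a and c and the dyes exchanged on b and d. The design names biological replicates within 2 dye swaps but not which arrays share an RNA extract, so the p-values measure the spread between these arrays, part of which may be technical.

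Photosystem II and photosystem I are the pigment-protein complexes of the thylakoid membrane that use light to move electrons from water towards ferredoxin. LHCB proteins, mostly as trimers of LHCB1, LHCB2 and LHCB3, bind chlorophyll and pass light energy mainly to photosystem II, while LHCA proteins form a belt on photosystem I. The reaction-centre cores are made in the plastid, whereas the antenna proteins and the subunits named here are made from nuclear genes, which are known to be turned on by light and as leaf cells become green. In a bulk tissue such as the apex with its leaf primordia, fewer green cells and less RNA per green cell cannot be told apart.

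Every value is a log2 ratio of ron3 over Ler, so that −1 stands for a level in ron3 that is 2-fold lower. SIC (AT4G24500), taken from general knowledge to be the RON3 gene, was at −2.31, −2.27, −2.21 and −2.41 on arrays a to d. The 43 members were well above background in all 8 channels, with background-subtracted signals from 1870 for LHCB2.2 to 224695 for LHCB1.4 and 0 saturated gene spots on any array. Median gene spot signals ran from 129.5 to 164 in Cy3 and from 148 to 222 in Cy5, and array d was the dimmest in both dyes. Of the shoot meristem and boundary markers that check the labelled tissue, 6 of 8 were tested, among them STM, while WUS and CLV3, both confined to few cells, did not pass the filter on dim probes.

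Transcripts of both photosystems and of their antenna were lower in ron3. Of the 43 genes 41 fell and 0 rose (limma, adjusted p below 0.05), whereas 32.8% of all genes tested were lower, 37.0% higher and 69.8% changed in either direction at that threshold. The median of the members was −0.64, or 64.2% of the Ler level, against a median of 0.02 over all genes tested and of −0.39 over all genes called lower. The decreases were moderate: 24 members were at least 1.5-fold lower, against 9.18% of all genes tested, and 3 were at least 2-fold lower, against 2.04%. Those 3 were PSAF, LHCB1.4 and PSAN. The remaining members were LHCB4.3, which had a ratio above 0 on every array, and PSBS, which lay near 0, and neither passed the threshold.

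**Figure D1:**
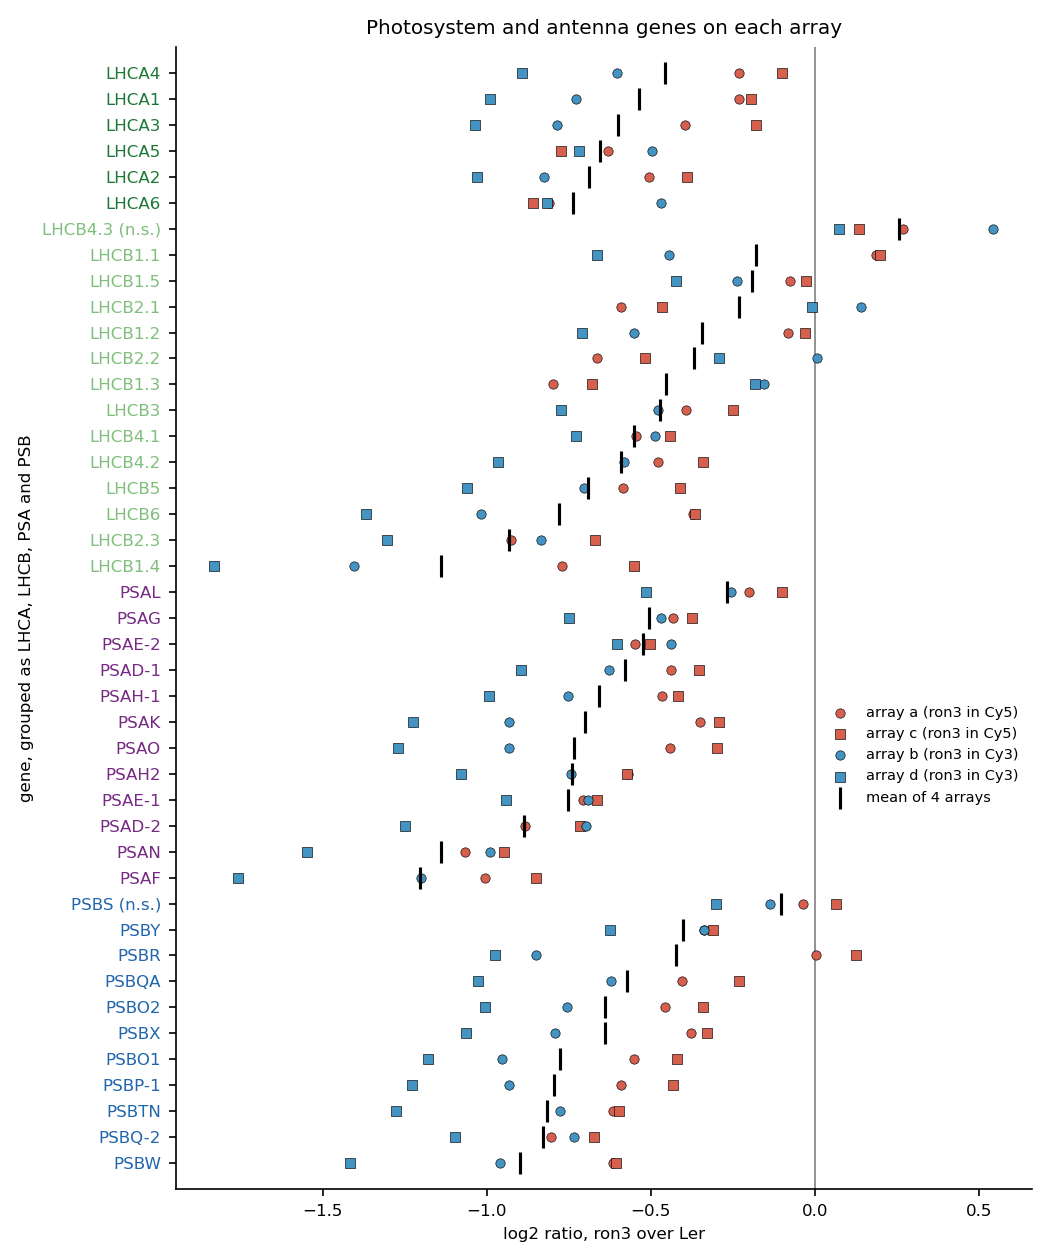
Log2 ratio of ron3 over Ler (horizontal axis) for each of the 43 genes, with arrays a and c (ron3 in Cy5) in red, arrays b and d (ron3 in Cy3) in blue and the mean of 4 arrays as a black bar. Gene names are coloured by class (LHCA, LHCB, PSA and PSB from top to bottom), and n.s. marks the 2 genes that did not pass the threshold. Of the genes, 37 lie below 0 on all 4 arrays, and in 38 the lowest value is that of array d.

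The size of the decrease differed between arrays. The median member was at −0.48, −0.70, −0.39 and −0.99 on arrays a to d, where the median of all genes tested was 0.02, 0.01, 0.04 and 0.01. Array d gave the lowest value for 38 of the 43 members and array c the highest for 34. In 37 members the ratio was below 0 on all 4 arrays, as it was for 35.4% of all genes tested. The 4 members that fell although at least 1 array was above 0 were LHCB1.1, LHCB2.1, LHCB2.2 and PSBR. Root markers also stood apart on array d, where their mean ratio was near 0. Of the 10 tested, 8 were higher in ron3 and 0 lower, with list means of 0.70, 0.68, 0.69 and 0.06 on arrays a to d. Their summed normalised intensity ran from 1114 to 2105 in ron3 and from 1038 to 1180 in Ler, and 4 of them (RHD6, EXPA7, EXPA18 and PRP3) never stood well above background in the Ler channel. These 4, all called higher, entered the test only through ron3, so the filter favoured that direction. The number of root markers called higher was 3 without array a, 5 without array c or with the scanner software's log ratio, and 1 when every channel had to be above background. Of the root probes used, only that of CASP1 was above background in every channel, so the last count was limited by the filter itself. The part of the root markers in the values of array d was not tested. Without array d, 39 members fell and the median member stood at −0.57.

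The dye orientation moved with the ratio as well. In 36 members the ratio was lower on the arrays with ron3 in Cy3 than on those with ron3 in Cy5, and the median member stood at −0.44 on arrays a and c alone and at −0.86 on b and d alone. Across the 43 genes, which share their arrays and are not independent, the ratios correlated at r = 0.96 between arrays a and c and also between b and d, but at 0.35 to 0.50 between arrays of opposite orientation. An unadjusted dye p under 0.05 (limma) was found for 24 of the 43 members, against 11.5% of all genes tested. After adjustment over all genes 0 members passed, and even PSBR, with the smallest dye p of 0.000256, had an adjusted value of 0.405 (limma). That 0 does not mean that the members lack a dye difference. The SDs given below still hold this dye difference, which the fit behind the p-values takes out. In 30 members both channels of all 4 arrays came from the scanner's low-gain pass, whose readings the software scales up for the brightest spots. Of the 188 other genes read in that way, 66 were lower and 82 higher, with a median of 0.08, while all 30 such members were lower, with a median of −0.62. The ratio with ron3 in Cy5 exceeded that with ron3 in Cy3 by a median of 0.24 in those other genes and 0.53 in the 30 members. The 5 members that were never scaled up were LHCA5, LHCB1.3, LHCB2.1, LHCB2.2 and LHCB4.3, and all 5 had their lower ratio with ron3 in Cy5, the reverse of most others. Of these 5, 4 fell.

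**Figure D2:**
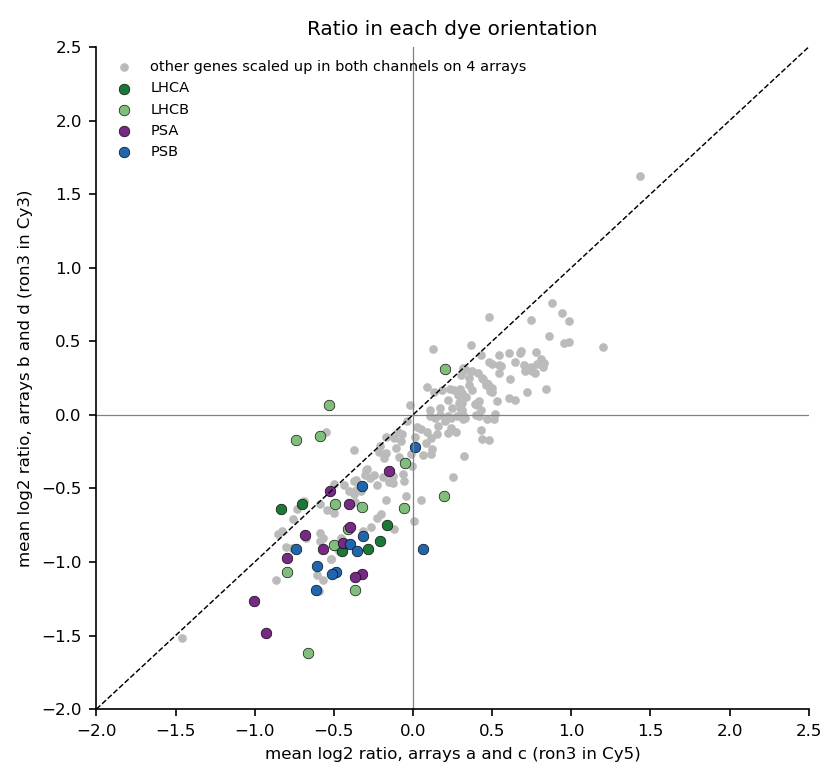
Mean log2 ratio of ron3 over Ler on arrays b and d (ron3 in Cy3, vertical axis) against that on arrays a and c (ron3 in Cy5, horizontal axis), with the 43 genes coloured by class and the 188 other genes read from the low-gain pass in both channels on all arrays in grey. Points below the dashed line of equality, 36 of the 43 members, were lower with ron3 in Cy3.

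The 6 LHCA genes were the most even class in their means over the arrays. All 6 fell, with a median of −0.63 and a range of means from −0.74 to −0.46. On array c alone they ran from −0.86 for LHCA6 to −0.10 for LHCA4. LHCA1 to LHCA4 encode the antenna belt of photosystem I, and their means lay between −0.69 and −0.46. LHCA2 (AT3G61470) was at −0.51, −0.82, −0.39 and −1.03 on arrays a to d, a mean of −0.69 ± 0.29 (SD, n = 4), or 1.61-fold lower in ron3 (limma, adjusted p = 0.000709). LHCA4 (AT3G47470) changed least in the class by its mean, with −0.23, −0.60, −0.10 and −0.89, a 1.37-fold decrease (limma, adjusted p = 0.00355). In both genes every array was below 0, and the arrays with ron3 in Cy3 were lower than the other arrays. LHCA1 and LHCA3 showed the same order of arrays, with means of −0.54 ± 0.39 and −0.60 ± 0.38 (SD, n = 4).

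LHCA5 and LHCA6 encode less abundant antenna proteins that are known to link photosystem I to the chloroplast NDH complex, which returns electrons to the plastoquinone pool. LHCA6 (AT1G19150) had the lowest mean of the class, −0.74 ± 0.18 (SD, n = 4; limma, adjusted p = 0.00110). It was at −0.81, −0.47, −0.86 and −0.82 on arrays a to d. Its value on array b stood apart from the other arrays, which lay close together. LHCA6 was the lowest of the class on arrays a and c but the highest on b. Across arrays a to d the median of LHCA5 and LHCA6 was −0.72, −0.48, −0.82 and −0.77. For LHCA1 to LHCA4 it was −0.31, −0.76, −0.19 and −1.01, so the order turned with the dye orientation. LHCA5 (AT1G45474) was at −0.63, −0.50, −0.77 and −0.72, a mean of −0.65 ± 0.12 (SD, n = 4; limma, adjusted p = 0.000916). It was the only member with more than 1 probe, and its second probe, which was not used in the counts, gave −0.55 ± 0.21 and was below 0 on all 4 arrays. The difference between LHCA5 and LHCA6 was 0.08 ± 0.09 (SD, n = 4), above 0 on 3 arrays and below on 1. Of the subunits of the NDH complex itself, 8 of 10 listed were tested and all 8 were lower, with a median of −0.53. Examples are NDHO at −0.57 ± 0.16, PNSB2 at −0.74 ± 0.13 and the lumenal subunit PNSL2 at −1.09 ± 0.25.

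The LHCB class had the widest range, from −1.14 for LHCB1.4 to 0.26 for LHCB4.3, with 13 of 14 genes lower and a median of −0.46. The 9 genes of the trimer proteins LHCB1, LHCB2 and LHCB3 all fell, with a median of −0.37. Among the LHCB1 genes, LHCB1.4 (AT2G34430) had the largest mean decrease. It was at −0.77, −1.40, −0.55 and −1.83 on arrays a to d, a mean of −1.14 ± 0.59 (SD, n = 4), or 45.4% of the Ler level (limma, adjusted p = 0.000701). All 4 values were below 0, and the arrays with ron3 in Cy3 gave the lower ones. On arrays a and c LHCB1.3 was lower than LHCB1.4, at −0.80 and −0.68.

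LHCB1.5 (AT2G34420), the neighbour of LHCB1.4 on chromosome 2 with 0 genes between them, was only slightly lower. Its ratios were −0.08, −0.24, −0.03 and −0.42, a mean of −0.19 ± 0.18 (SD, n = 4; limma, adjusted p = 0.0223). LHCB1.4 was lower than LHCB1.5 on all 4 arrays, by 0.95 ± 0.41 on the log2 scale (SD, n = 4). That is the largest difference among the 10 paralog pairs compared here. An exact two-sided sign-flip test over 4 arrays cannot give less than p = 0.125, which was the value for this pair (0.179 adjusted over the 10 pairs). No pair could therefore pass the threshold, and pairs are described by their values and signs.

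LHCB1.1, LHCB1.2 and LHCB1.3 form a row of adjacent genes on chromosome 1. LHCB1.1 (AT1G29920) was at 0.19, −0.44, 0.20 and −0.66 on arrays a to d, so its sign followed the dye and its call (mean −0.18, limma, adjusted p = 0.0312) rests on the dye term of the model. Without that term the adjusted p was 0.348. LHCB1.2 (AT1G29910) was at −0.08, −0.55, −0.03 and −0.71 (mean −0.34; limma, adjusted p = 0.00293). LHCB1.3 was lower on the opposite arrays, at −0.80, −0.15, −0.68 and −0.18 (mean −0.45; limma, adjusted p = 0.00104). With the scanner software's own log ratio (Feature Extraction), LHCB1.1, LHCB1.2 and LHCB1.5 stood at −0.02, −0.11 and −0.01 and none of these 3 passed. Leaving out array a, c or d also ended the calls of LHCB1.1 and LHCB1.5, with adjusted p (limma) between 0.0519 and 0.134. The LHCB1 genes are near-identical in sequence, as are LHCB2.1 and LHCB2.2, and cross-hybridisation between them cannot be told apart from their own signal, which leaves each gene's value uncertain.

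LHCB2 proteins are among the trimer subunits that the kinase STN7 is known to phosphorylate when antenna moves between the photosystems. LHCB2.3 (AT3G27690) was at −0.93, −0.83, −0.67 and −1.30 on arrays a to d, a 1.91-fold decrease that every array shared (limma, adjusted p = 0.00143). LHCB2.1 (AT2G05100) was at −0.59, 0.14, −0.47 and −0.01 and LHCB2.2 (AT2G05070) at −0.66, 0.01, −0.52 and −0.29. Both passed the threshold (limma, adjusted p = 0.0125 and 0.00789), and both were lower with ron3 in Cy5 than with ron3 in Cy3, where their means were 0.07 and −0.14. LHCB2.1 did not pass without the dye term (0.159), without array a (0.0824) or with median centring in place of loess (0.0567). LHCB2.1 lay above LHCB2.2 on 4 of 4 arrays, by 0.14 ± 0.11 (SD, n = 4). LHCB3 (AT5G54270), the third trimer protein, was lower on all 4 arrays, with a mean of −0.47 ± 0.22.

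The monomeric, or minor, antenna proteins next to the photosystem II core are encoded by the LHCB4, LHCB5 and LHCB6 genes. LHCB4.1, LHCB4.2, LHCB5 and LHCB6 were lower on every array, with means of −0.55 ± 0.13, −0.59 ± 0.27, −0.69 ± 0.28 and −0.78 ± 0.50 (SD, n = 4). LHCB4.1 and LHCB4.2 differed by 0.04 ± 0.16, with 2 arrays on each side of 0 (exact p = 0.75, two-sided). LHCB4.3 (AT2G40100), also known as LHCB8, departed from them. It was at 0.27, 0.54, 0.14 and 0.07 on arrays a to d, a mean of 0.26 ± 0.21 (SD, n = 4; limma, adjusted p = 0.0566). Its value exceeded that of LHCB4.1 on 4 of 4 arrays, by 0.81 ± 0.18 (exact p = 0.125, two-sided, the smallest possible). LHCB4.3 passed the threshold as higher under 5 of the processing alternatives and also without array d, where its ratio was 0.37 (limma, adjusted p = 0.00480).

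Photosystem I showed the most negative class median, −0.72, and all 12 of its PSA genes fell. The largest decreases were in PSAF and PSAN, subunits on the lumenal side that are known to interact with the electron donor plastocyanin. PSAF (AT1G31330) was at −1.0, −1.20, −0.85 and −1.76 on arrays a to d, a mean of −1.20 ± 0.40 (SD, n = 4), or 43.4% of the Ler level (limma, adjusted p = 0.000890). PSAN (AT5G64040) stood at −1.07, −0.99, −0.95 and −1.55, a mean of −1.14 ± 0.28 (SD, n = 4), or 45.4% of the Ler level (limma, adjusted p = 0.000994). The next lowest PSA gene, PSAD-2, was at −0.89, and on each of the 4 arrays PSAF and PSAN were the lowest PSA genes.

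PSAD and PSAE form, with a plastid-encoded subunit, the stromal side at which ferredoxin is reduced. Each is encoded by a pair of genes. In both pairs the same gene was lower on 4 of 4 arrays (exact p = 0.125, two-sided, the smallest possible). PSAD-1 (AT4G02770) was at −0.44, −0.63, −0.35 and −0.89 and PSAD-2 (AT1G03130) at −0.88, −0.70, −0.71 and −1.25 on arrays a to d. PSAD-2 was thus lower on 4 of 4 arrays, by 0.31 ± 0.16 (SD, n = 4). PSAE-1 (AT4G28750) was at −0.71, −0.69, −0.66 and −0.94 and PSAE-2 (AT2G20260) at −0.55, −0.44, −0.50 and −0.60. Here the first gene was lower on 4 of 4 arrays, by 0.23 ± 0.09 (SD, n = 4). PSAE-2 had the smallest SD of all members, 0.07, and an unadjusted dye p of 0.959.

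The subunits PSAG, PSAK, PSAH, PSAL and PSAO hold the antenna to photosystem I, with PSAH, PSAL and PSAO at the docking site of mobile LHCB trimers. Their 6 genes lay between −0.74 and −0.27. PSAL (AT4G12800) changed least in the PSA class, at −0.20, −0.25, −0.10 and −0.51 on arrays a to d, with a mean of −0.27 ± 0.18 (SD, n = 4; limma, adjusted p = 0.0145). Its call was lost without array a (0.0833) and without array c (0.0545). PSAH-1 and PSAH2, at −0.66 ± 0.27 and −0.74 ± 0.24, differed by 0.08 ± 0.07 with 1 array on the other side of 0. PSAG was at −0.50 ± 0.17 and below 0 on all 4 arrays. PSAK and PSAO were at −0.70 ± 0.45 and −0.73 ± 0.45, with spreads that held a large dye difference, 0.76 and 0.73 between the orientations.

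Of the 11 PSB genes of photosystem II 10 fell, with a median of −0.64. PSBO, PSBP and PSBQ are the lumenal proteins that shield the water-splitting manganese cluster, and PSBR is known to help PSBP attach. All 6 of these genes fell, from −0.83 for PSBQ-2 to −0.42 for PSBR. PSBO1 (AT5G66570) was at −0.55, −0.95, −0.42 and −1.18 on arrays a to d and PSBO2 (AT3G50820) at −0.45, −0.76, −0.34 and −1.01. PSBO1 was lower than PSBO2 on 4 of 4 arrays, by only 0.14 ± 0.06 (SD, n = 4). PSBQ-2 was lower than PSBQA on 4 of 4 arrays, by 0.26 ± 0.19, with means of −0.83 and −0.57. PSBP-1 was below 0 on all 4 arrays, with a mean of −0.80 ± 0.36 (SD, n = 4). PSBR had the largest dye difference of all members. It stood at 0.00, −0.85, 0.13 and −0.98, so that it was lower only on the arrays with ron3 in Cy3 (mean −0.42 ± 0.57; limma, adjusted p = 0.00167, or 0.108 without the dye term).

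The small subunits PSBW, PSBX, PSBY and PSBTN all fell. PSBW (AT2G30570) had the lowest mean of the PSB genes, −0.90 ± 0.38 (SD, n = 4), or 1.86-fold lower (limma, adjusted p = 0.00112). It was at −0.61, −0.96, −0.61 and −1.42 on arrays a to d. PSBQ-2 was lower than PSBW on arrays a and c, at −0.81 and −0.67. PSBTN was at −0.82 ± 0.32, PSBX at −0.64 ± 0.35 and PSBY at −0.40 ± 0.15. PSBS (AT1G44575), which senses lumen acidity and triggers the release of excess light energy as heat, did not pass the threshold. Its ratios were −0.04, −0.14, 0.07 and −0.30, a mean of −0.10 ± 0.16 (SD, n = 4; limma, adjusted p = 0.122).

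The 4 classes shared the direction, and their order varied between arrays. Medians ran from −0.72 for PSA and −0.64 for PSB to −0.63 for LHCA and −0.46 for LHCB, while the SD between the members of a class was 0.26, 0.24, 0.10 and 0.35. On arrays a to d the medians were −0.51, −0.72, −0.46 and −1.04 for PSA and −0.45, −0.78, −0.34 and −1.06 for PSB. They were −0.45, −0.67, −0.29 and −0.94 for LHCA and −0.51, −0.48, −0.39 and −0.72 for LHCB. LHCB lay above PSA on arrays b, c and d but not on a, and its median of the genes' means was higher by 0.25. LHCA lay above PSA on 4 of 4 arrays, by 0.05 to 0.17. PSA lay below PSB on arrays a and c and above it on b and d. LHCB was level with PSA as the lowest class on array a and was the highest on b and d. Class medians were below 0 under each processing alternative that left all members in the test.

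**Figure D3:**
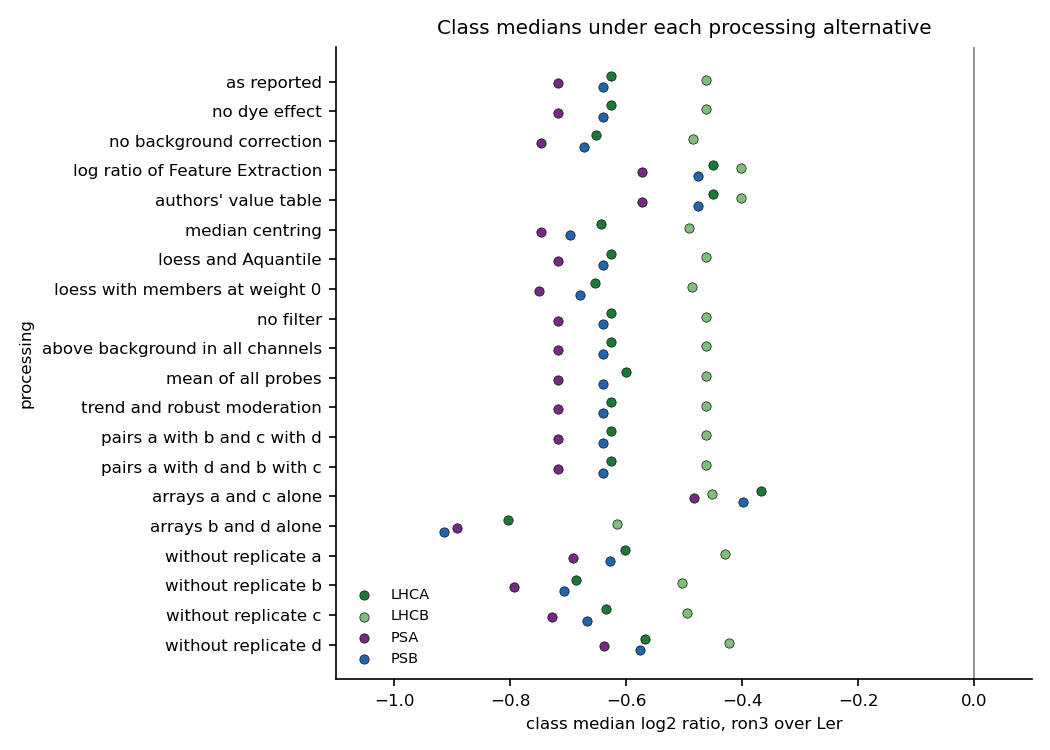
Median log2 ratio of ron3 over Ler (horizontal axis) of the LHCA, LHCB, PSA and PSB genes under the reported processing and each alternative (rows). All points lie below 0, and the lowest point of each class is from arrays b and d alone.

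Other genes of photosynthesis were read from lists of pathway genes to place the members beside the steps around them. In electron transport and ATP synthase 10 of 14 genes fell and 2 rose, with a median of −0.37. The plastocyanin gene DRT112 was at −0.90 ± 0.36, the main leaf ferredoxin FD2 at −1.05 ± 0.37 and the cytochrome b6f subunit PETM at −1.05 ± 0.35 (SD, n = 4). The genes that rose, PGRL1A and PGRL1B, act in cyclic electron flow around photosystem I and stood at 0.15 ± 0.03 and 0.23 ± 0.13. Both calls were lost without array c, and 1 of them without a or d, with median centring and with arrays averaged in pairs (a with d, b with c). All 5 genes of Rubisco and its activase were lower, with RBCS3B, RBCS2B and RBCS1B at −0.83 ± 0.20, −0.75 ± 0.34 and −0.70 ± 0.27. The activase gene RCA and RBCS1A changed less, at −0.25 ± 0.28 and −0.17 ± 0.08. Of the 5 genes, 3 passed with the log ratio of Feature Extraction and when array a, c or d was left out.

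Chlorophyll synthesis was lower in 20 of 23 genes and higher in 1, with a median of −0.46. PORB, a light-dependent protochlorophyllide reductase, was at −1.28 ± 0.15, the magnesium chelatase subunit CHLI2 at −0.80 ± 0.19 and the porphobilinogen deaminase HEMC at −0.74 ± 0.08 (SD, n = 4). PORA, the reductase of etiolated seedlings, had the largest decrease of the list, −2.02 ± 0.44, and was named after its values were seen. The 1 gene higher was HEMA2, the glutamyl-tRNA reductase of non-green tissue, at 0.20 ± 0.11, which did not pass without array a or c, with the log ratio of Feature Extraction or with the authors' values. Genes of chlorophyll breakdown showed no common direction. Of 10, 2 were higher, the chlorophyllase CLH2, whose level was 2.65-fold that of Ler, and the pheophytinase PPH at 0.45 ± 0.14. The 2 that were lower, NYC1 at −0.79 ± 0.26 and NOL at −0.54 ± 0.15, are the chlorophyll b reductases that open the breakdown of antenna proteins. The other 6 did not pass, whereas 69.8% of all genes tested were called in either direction.

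All 12 genes of antenna insertion and photosystem assembly were lower, with a median of −0.55, including PAM68 at −0.92 ± 0.05, PSB33 at −1.07 ± 0.16 and PYG7 at −0.67 ± 0.04 (SD, n = 4). Of the 3 state transition genes, STN8, the main kinase of photosystem II core proteins, fell to −0.71 ± 0.18 and the phosphatase TAP38 to −0.34 ± 0.07, and STN7 did not pass. The light-harvesting-like proteins, relatives of the antenna that bind pigment under stress or during greening, moved apart. Among 9 of them 5 fell, such as LIL3:1 at −0.69 ± 0.17, SEP1 at −0.62 ± 0.18 and LIL3:2 at −0.41 ± 0.10. The 3 that rose were ELIP1, SEP2 and ELIP2. ELIP1, an early light-induced protein, was at 2.96, 2.97, 3.03 and 3.24 on arrays a to d, 8.29-fold higher in ron3 (limma, adjusted p = 0.000147). ELIP2 was at 0.86 ± 0.38 and SEP2, a stress-enhanced protein, at 0.71 ± 0.23.

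**Figure D4:**
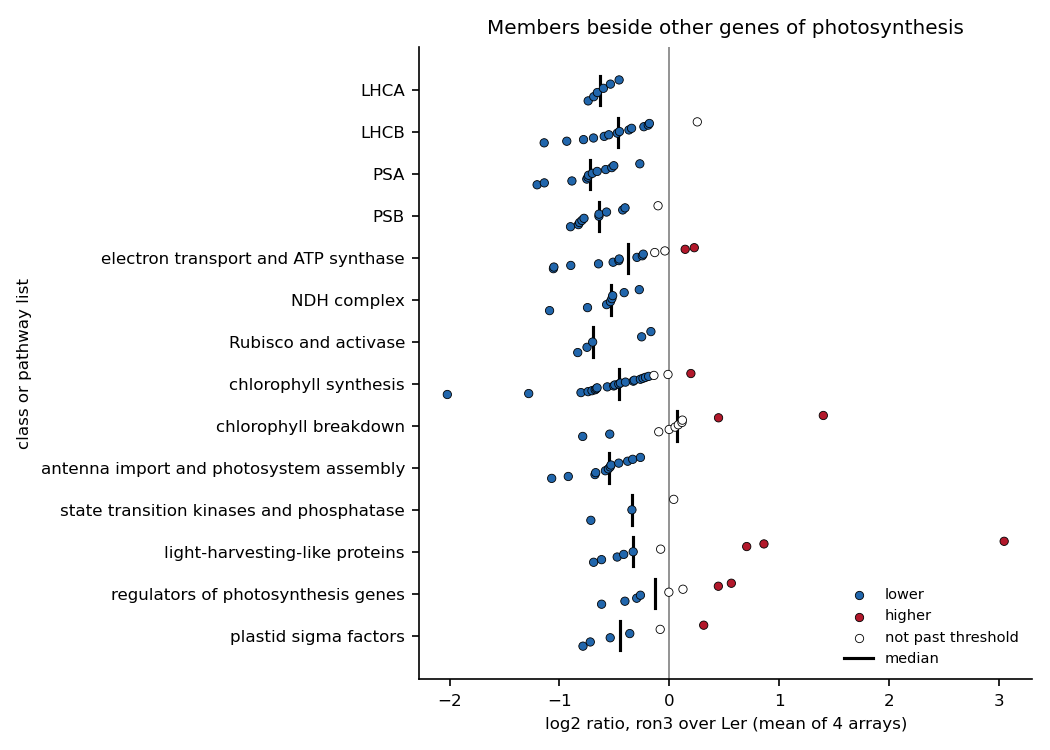
Mean log2 ratio of ron3 over Ler (horizontal axis) of each tested gene in the 4 classes and in 10 lists of other photosynthesis genes (rows), with genes called lower in blue, higher in red and neither in white, and the median as a bar. ELIP1, at 3.05, is the point farthest to the right.

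Regulators of photosynthesis genes went both ways, with 4 of 8 tested lower and 2 higher, where 32.8% of all genes tested were lower and 37.0% higher. GLK1 and GLK2 are paralogous activators of antenna and chlorophyll genes. GLK1 was at 0.30, 0.50, 0.55 and 0.44 on arrays a to d (limma, adjusted p = 0.00237), whereas GLK2 was at −0.62, −0.76, −0.27 and −0.82 (adjusted p = 0.00185). GLK1 was above 0 and GLK2 below 0 on all 4 arrays. HY5, a light-signalling factor, was at 0.57 ± 0.14, GNC, a GATA factor of greening, at −0.40 ± 0.24 and PIF3, a repressor of greening in the dark, at −0.26 ± 0.16 (SD, n = 4). Without array a, 2 regulators were called lower. Of 6 plastid sigma factors, which direct the plastid RNA polymerase, 4 fell, among them SIG6 at −0.54 ± 0.19, SIG4 at −0.79 ± 0.11 and SIG2 at −0.72 ± 0.15. SIG5 rose to 0.31 ± 0.21, a call lost without array a, b or c, with arrays averaged in pairs (a with b, c with d), with the log ratio of Feature Extraction and with the authors' values. The 20 listed plastid-encoded photosystem subunits had no probe under their locus identifier and were not analysed here.

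Among the markers of other cells, stomatal lineage and guard cell genes were lower in 8 of 9, with a median of −0.33 and list means of −0.42, −0.33, −0.44 and −0.42 on arrays a to d. Their summed normalised intensity was 18398 to 21091 in ron3 and 21995 to 25031 in Ler, and none was below background throughout in either genotype. Shoot meristem and boundary genes rose in 3 of 6, with STM at 0.40 ± 0.12, KNAT1 at 0.33 ± 0.10 and CUC3 at 0.29 ± 0.10 (SD, n = 4), and fell in 2, CUC2 at −0.27 ± 0.08 and KNAT2 at −0.19 ± 0.14, a count of 1 without array a or d. Their summed intensity was 1600 to 1965 in ron3 and 1432 to 1707 in Ler. Of all genes tested, 37.0% were higher and 32.8% lower. The part of these markers in the members' decrease was not tested.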

How the data were processed

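Total RNA (1 µg) and 10 spike-in transcripts were amplified by in vitro transcription and dyed with Cy3 or Cy5, per the labels. Agilent Feature Extraction 10.1.1.1 read the scans, per the submitters' processing notes. The deposited median spot and background signals are an intensity, and so are the deposited processed signals, which the software background-subtracted and dye-normalised. A deposited column gives log10 of red (Cy5) over green (Cy3). Its deposited flags (saturated, well above background, outlier, scaled up) are of another kind, 0 or 1. A further deposited table gives, for 33441 probes, the authors' log2 ratios, which equal those of the processed signals as ron3 over Ler, without centring, with medians of −0.01, −0.12, 0.01 and −0.17 on arrays a to d. All arrays lay on 1 slide.

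Median signals were corrected with normexp (offset 50) and normalised by loess within arrays, with controls at weight 0, in limma 3.58.1 (R 4.3.3). Probes entered when well above background for one genotype on at least 2 arrays and unflagged on at least 3, and the brightest probe stood for its gene. A linear model with a dye effect per probe was fitted to all 19246 genes, with 2 residual and 2.45 prior degrees of freedom, two-sided tests and Benjamini-Hochberg adjustment at 0.05, and was tested on simulated data. The number of arrays limits the precision. Members and lists were chosen with earlier results of these data known. All members may be named. Full values went to the extreme genes of each class, to paralogs and to members not past the threshold, and lists were read by up to 3 genes per direction with the smallest p. Symbols follow a RefSeq gene table (TAIR10.1), from which neighbouring genes were also read, or, for LHCB1, LHCA and a few other genes, their usual names.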

Additional observations from a re-analysis of the deposited data

Results flagged for a closer look

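Among 48 sets of 4 array values (the 43 genes, the 4 classes and all members), 3 had 1 array far from the rest of its set, where chance alone gives about 1 in 20. LHCA6 was at −0.47 on array b, against −0.86 to −0.81 on the others. PSAE-1 was at −0.94 on array d, against −0.71 to −0.66. PSBY was at −0.62 on array d, against −0.34 to −0.31. Each of the 3 genes was below 0 on all 4 arrays.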

How the results depend on the processing

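Under the alternatives that gave a test, 1 of them chosen after seeing the data, 710 of 737 member values kept their direction and their side of the threshold, 21 lost the call, 6 gained it and 0 turned sign. Several alternatives left member ratios unchanged by construction, among them Aquantile scaling, the filters and the fit without a dye effect. The mean of all probes could change only the ratio of LHCA5, and the authors' values repeat the log ratio of Feature Extraction. The count of kept values is therefore no measure of robustness by itself. In single dye orientations, which gave ratios only, signs did turn: 39 members were below 0 on arrays a and c alone and 41 on b and d alone, against 42 as reported. LHCB1.1, PSBR and PSBS were at 0.193, 0.0649 and 0.0146 on a and c, and LHCB2.1 was at 0.0665 on b and d. The calls lost were those of LHCB1.1, LHCB1.2, LHCB1.5, LHCB2.1, PSAL and PSBR. The number of members lower ran from 37 (no dye effect, or without array a) to 41, with 38 from the log ratio of Feature Extraction and from the authors' values. The number higher was 1, LHCB4.3, with no dye effect, with median centring, with all channels above background, with trend and robust moderation and with arrays averaged in pairs (a with d, b with c), and 0 to 1 when an array was left out. The LHCB median moved to −0.62 on arrays b and d alone. Leaving out every spot scaled up from the low-gain pass, the one chosen after seeing the data, left 6 members tested, by its construction, of which 5 were lower: 1 LHCA, 3 LHCB, 1 PSA and 0 PSB. Loess with members at weight 0 gave 41 lower and a median of −0.66. Ratios computed by the scanner software gave smaller decreases, with a member median of −0.48 against −0.64 as reported. On that scale the median of all genes tested was −0.04, and 38.4% of them were lower, against 32.8% as reported. Class medians there were −0.45 for LHCA, −0.40 for LHCB, −0.57 for PSA and −0.48 for PSB. Between-array Aquantile scaling leaves ratios as they are, and no background correction, no filter and the mean of all probes each gave 41 lower. The promoter motif description was not run, since no promoter sequence was used here. The labels tie no arrays into pairs, so both possible pairings were averaged: a with b and c with d gave 41 lower, and a with d and b with c gave 40, where LHCB1.1 did not pass (limma, adjusted p = 0.0526). The brightest spots depend on the low-gain pass.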
